A study of Mus musculus with 4 samples.

Results

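Cycling tumour epithelial cells are the part of the pancreatic tumour epithelium caught while copying or dividing its chromosomes, and they were taken here from 4 single-cell RNA libraries of dissociated mouse tumours. A barcode was a member when it held at least 2000 UMIs (unique molecular identifiers, each marking 1 captured RNA molecule), at most 20% mitochondrial UMIs and at least 1 UMI of Malat1, a nuclear RNA that intact cells retain. It also had to show at least 2 of the 8 epithelial genes Epcam, Krt8, Krt18, Krt19, Krt7, Cldn4, Cldn7 and Cdh1, no Ptprc and no Pecam1, at most 2 UMIs of Col3a1 and Col1a2 together, and no more C1qa, C1qb and C1qc than Krt8, Krt18 and Krt19. Last, it had to show at least 3 of the 6 cycle genes Mki67, Top2a, Ube2c, Birc5, Cenpf and Nusap1. This left 1806 cells of 16890 barcodes, and of 4823 tumour epithelial cells that met every condition but the last. The vehicle libraries gave 386 and 544 members, and the TAK-981 libraries 210 and 666. The other 3017 tumour epithelial cells, with fewer than 3 of the 6 cycle genes, are called cells outside cycle. Macrophages of the same tumours serve as a cell type that should lack epithelial RNA. They are 1936 barcodes with Ptprc, at least 5 UMIs of the C1q genes, and more of these than of Krt8, Krt18 and Krt19.

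All 4 tumours came from KPC46, a single organoid line of pancreatic ductal adenocarcinoma, in mice of the strain B6/129 F1J. Each library held the tumour of 1 mouse, with 2 mice given the vehicle Cremophor and 2 mice given TAK-981 (Subasumstat). KPC lines are mouse models of pancreatic cancer; the labels do not list the alleles of this line, nor the dose, the schedule or the site of the tumours. Because every tumour came from 1 line and every group had 2 mice, the tests below measure the spread between 2 tumours per group. A tumour whose viability was low went through dead cell removal before loading, and the labels do not say which ones did.

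A dividing cell licenses its replication origins in G1 with the MCM helicase, copies its DNA in S phase, and then builds a spindle, attaches chromosomes to it at the kinetochores and splits. The S phase genes are switched on by E2F factors, and the later G2 and M genes by MYB and FOXM1 complexes that work through the promoter letters TTTGAA and through CCAAT boxes bound by NF-Y. TAK-981 blocks the SUMO-activating enzyme, made of Sae1 and Uba2, which starts the transfer of small SUMO proteins onto other proteins. SUMO is attached to many proteins of the centromere, of DNA repair and of transcription, and loss of SUMO conjugation is known to raise type I interferon signalling.

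The members carried 7975223 to 27661845 UMIs per library, and their median UMIs per cell were 20377 and 14138 with vehicle against 30470 and 36951 with TAK-981. Depth therefore moved with treatment, and its part in the differences given here was tested only by thinning. The median mitochondrial share was 3.44% and 3.14% with vehicle, and 3.35% and 5.20% with TAK-981. Ribosomal protein genes made up 32.2% and 32.6% of the members' UMIs with vehicle, against 18.9% and 22.2% with TAK-981, and in macrophages of the same tumours 18.1% and 23.6% against 13.7% and 13.5%. No barcode was shared between the members of any pair of libraries, and 34 were shared over all pairs among all barcodes.

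Promoter letters are shown for 5 genes that the results return to, as the 250 bases before each RefSeq start site (GRCm38.p6), 5′ to 3′. Top2a and Ube2c are rule genes of the G2 and M programme, Cenpw is a kinetochore gene that fell with TAK-981, Mcm7 is a member of the licensing helicase, and Bst2 is an interferon gene that rose. Capitals mark TTTGAA and CCAAT on either strand in Top2a (chr11:99024190-99024439, minus strand), Ube2c (chr2:164769679-164769928, plus strand) and Cenpw (chr10:30200541-30200790, minus strand).
Top2a: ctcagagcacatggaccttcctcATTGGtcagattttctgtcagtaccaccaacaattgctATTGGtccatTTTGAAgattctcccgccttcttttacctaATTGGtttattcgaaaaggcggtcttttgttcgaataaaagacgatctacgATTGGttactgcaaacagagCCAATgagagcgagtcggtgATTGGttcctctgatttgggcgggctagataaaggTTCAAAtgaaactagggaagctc
Ube2c: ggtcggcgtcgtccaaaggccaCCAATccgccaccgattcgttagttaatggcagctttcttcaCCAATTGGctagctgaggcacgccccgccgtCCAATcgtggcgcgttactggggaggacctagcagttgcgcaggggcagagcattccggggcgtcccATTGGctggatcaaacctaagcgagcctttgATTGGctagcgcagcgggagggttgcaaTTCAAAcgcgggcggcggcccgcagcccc
Cenpw: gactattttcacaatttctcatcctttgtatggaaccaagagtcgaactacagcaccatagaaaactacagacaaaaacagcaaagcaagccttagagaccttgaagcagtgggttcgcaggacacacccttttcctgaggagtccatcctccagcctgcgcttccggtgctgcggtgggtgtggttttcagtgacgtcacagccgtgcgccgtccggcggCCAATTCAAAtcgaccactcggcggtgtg
In the licensing gene Mcm7 (chr5:138171884-138172133, minus strand) capitals mark an E2F match, one of TTTGGCGC, TTTCCCGC, TTTCGCGC and TTTGCCGC on either strand, and CCAAT.
Mcm7: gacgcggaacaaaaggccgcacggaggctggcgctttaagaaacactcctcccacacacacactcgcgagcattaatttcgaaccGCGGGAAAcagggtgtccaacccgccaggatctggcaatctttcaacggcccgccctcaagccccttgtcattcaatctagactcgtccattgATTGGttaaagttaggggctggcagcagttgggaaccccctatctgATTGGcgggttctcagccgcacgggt
In Bst2 (chr8:71537473-71537722, minus strand) capitals mark letters bound by interferon regulatory factors, GAAA followed after any 2 bases by a second GAAA, on either strand.
Bst2: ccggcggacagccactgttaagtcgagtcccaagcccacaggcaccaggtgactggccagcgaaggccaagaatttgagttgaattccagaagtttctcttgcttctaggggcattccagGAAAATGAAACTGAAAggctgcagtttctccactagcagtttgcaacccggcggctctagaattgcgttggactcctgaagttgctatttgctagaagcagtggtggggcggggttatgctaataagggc

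These letters were counted over windows from 250 bases before to 50 after the start, taking the first listed start of 27025 genes. TTTGAA was present in 22 of 27 matched spindle and mitotic kinesin genes, or 81.5%, against 18.1% of all windows. CCAAT was present in 15 of 18 matched genes of the G2 and M cyclins and mitotic kinases, or 83.3%, against 37.9% of all windows. Lists outside the cycle held CCAAT about as often, with 84.6% of matched cholesterol synthesis genes, 78.9% of unfolded protein response genes and 75% of MHC class I genes. An E2F match was present in 8 of 16 matched licensing genes, or 50%, against 2.32% of all windows. This interferon pair of GAAA was present in 14 of 25 matched type I interferon genes, or 56%, against 3.49% of all windows. The motifs may overlap each other in a window, and a match describes letters only.

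Marker detection is given with every cell thinned to 2000 UMIs, so that depth was equal. Krt8, Krt18 and Krt19 are rule genes, and macrophages had to hold more C1q UMIs than UMIs of these keratins. Detection of the keratins is therefore a description and no check of the label. Krt8 was detected in 86.8% to 95.2% of the members of a library and Krt18 in 88.3% to 95.9%, against 4.38% to 10.4% and 2.81% to 9.26% of macrophages. Epcam, the usual surface marker of epithelium, was detected in 0.52%, 0%, 1.43% and 0.45% of members (vehicle 1, vehicle 2, TAK-981 1, TAK-981 2) and in 0.47%, 0.25%, 0% and 0.43% of macrophages. Cldn4 and Cldn7, claudins of epithelial junctions, were detected in at most 0.95% of the members of a library. The members therefore carry simple-epithelial keratins with almost no Epcam, Cldn4 or Cldn7 RNA. Vim, a mesenchymal filament gene, stood at 2316 and 4282 CPM (UMI counts scaled to a common library total, here after TMM scaling) with vehicle and 2941 and 2845 with TAK-981.

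**Figure D1:**
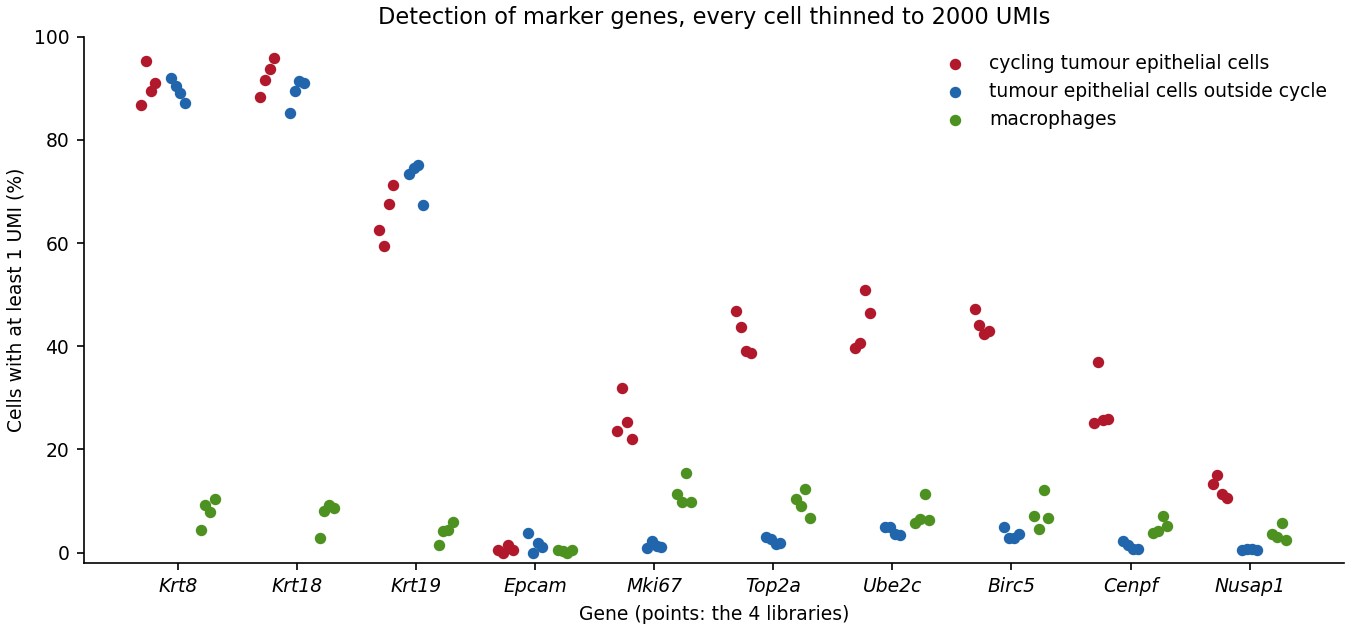
Share of cells with at least 1 UMI of each marker (y axis, %) after thinning to 2000 UMIs, by gene (x axis), with 1 point per library for cycling cells, cells outside cycle and macrophages. Krt8 and Krt18, genes of the rule that chose the epithelial cells, lie above 85% in both epithelial groups, and Epcam lies near 0 everywhere. The 6 cycle genes, which chose the cycling cells, separate them from the cells outside cycle.

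The cycle genes chose the members, so their levels are a description. At 2000 UMIs Top2a, the topoisomerase that untangles sister chromatids, was detected in 38.7% to 46.9% of members, in 1.59% to 3.00% of cells outside cycle and in 6.70% to 12.3% of macrophages. Mki67, which coats mitotic chromosomes, was detected in 22.1% to 32% of members, 0.82% to 2.27% of cells outside cycle and 9.72% to 15.5% of macrophages. Just inside the limit, exactly 3 of the 6 genes were seen in 61, 115, 22 and 104 cells of the 4 libraries in the same order, and just outside it exactly 2 genes were seen in 66, 159, 45 and 117 cells. Cells with all 6 genes numbered 172, 196, 93 and 301. The limit follows depth: median UMIs climbed from 14252 in cells with 3 genes to 23776 in cells with 6 in vehicle library 1, and from 26673 to 46065 in TAK-981 library 2.

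Levels in the members were then set beside those of cells outside cycle. Of 7371 genes at 10 CPM or more, 245, or 3.32%, were at least 2-fold higher in members in all 4 libraries and 30, or 0.407%, at least 2-fold lower; the cells were chosen on this contrast, so no test is given and the cycle genes among them follow from the choice. By list, 25 of 27 spindle and mitotic kinesin genes, 21 of 22 cyclins and mitotic kinases, 21 of 24 kinetochore genes, 27 of 35 DNA synthesis genes and 11 of 14 licensing genes were 2-fold higher in all 4 libraries. Genes outside those lists were picked here after their values were seen. The replication-dependent histone Hist1h1b stood at 271, 113, 153 and 134 CPM (scaled here on library totals alone, vehicle 1, vehicle 2, TAK-981 1 and TAK-981 2) in members and at 2.09, 3.30, 1.17 and 2.11 in cells outside cycle. Shcbp1, a midbody protein of dividing cells, stood at 132, 89.9, 144 and 88.0 CPM against 11.3, 6.75, 10.6 and 5.42.

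Of the 30 genes lower in members, 3 are given here, picked after their values were seen. Ttr, the thyroid hormone carrier, stood at 0.83, 16.4, 102 and 14.4 CPM in members against 64.7, 103, 860 and 163 in cells outside cycle. Fn1, fibronectin of the matrix, stood at 75.2, 110, 140 and 168 CPM against 208, 256, 487 and 740. Aldh1a1, a retinaldehyde dehydrogenase, stood at 3.82, 16.4, 12.7 and 12.5 CPM against 18.6, 44.9, 61.7 and 38.4. None of the listed interferon, MHC class I, heat shock or unfolded protein response genes was 2-fold apart in all 4 libraries, and the MYC and ribosome biogenesis list, with a median ratio of 0.71 on the log2 scale, had 0 of 25 members past 2-fold.

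The share of tumour epithelial cells in cycle was compared at equal depth, with every cell thinned to 2000 UMIs. With vehicle it was 15.8% (95% exact binomial interval 13.3 to 18.6) and 11.6% (10.2 to 13.2), and with TAK-981 12.4% (9.71 to 15.5) and 13.0% (11.5 to 14.7). Both TAK-981 values lie between the vehicle values. The means were 13.7% ± 2.96 (SD, n = 2) and 12.7% ± 0.452 (SD, n = 2), and the exact two-sided permutation test over the 4 libraries gave p = 1. Without vehicle library 1 the TAK-981 mean was 1.10 points above the vehicle value, in place of a difference of -0.989, so 1 library sets the direction. At full depth, as the rule is written, the shares were 51.3% and 29.1% with vehicle and 40.1% and 39.7% with TAK-981. The intervals cover counting error only.

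Within the members, the balance of S phase over G2 and M transcripts was higher in both TAK-981 libraries. A member counted as S-leaning where UMIs of the 58 licensing and DNA synthesis genes outnumbered those of 90 G2, spindle, kinetochore and rule genes after thinning to 2000 UMIs. Since the 6 rule genes chose the members, these shares are a description. S-leaning cells were 14.8% (11.4 to 18.7) and 9.93% (7.55 to 12.8) of members with vehicle, and 21.4% (16.1 to 27.6) and 20.4% (17.4 to 23.7) with TAK-981. The groups do not overlap: 12.3% ± 3.42 (SD, n = 2) against 20.9% ± 0.713 (SD, n = 2). With the 6 rule genes left out of the score, an alternative added after the values were seen, the shares were 23.8% and 14.2% with vehicle and 26.2% and 27.5% with TAK-981, and the groups again did not overlap. The exact two-sided permutation test on that score gave p = 0.33, the smallest that 2 against 2 libraries can give. The difference therefore cannot pass a 0.05 threshold in this design. For that score the members were still chosen on the 6 rule genes at full depth, which differs by group. This test therefore cannot separate treatment from the choice of cells. The class is a range cut from a score, and 15.3%, 10.5%, 11.4% and 15.2% of the members lay within 1 UMI of the limit. Where the members themselves were chosen at 2000 UMIs, which leaves fewer and more G2- or M-leaning cells, the shares were 1.68% and 1.84% against 12.3% and 7.76%.

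**Figure D2:**
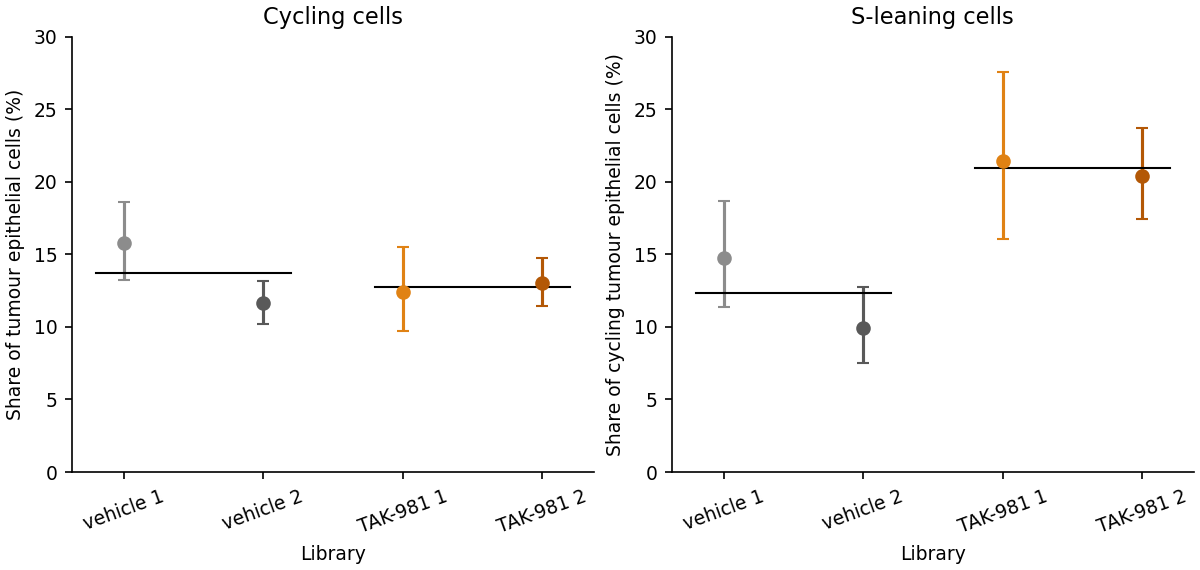
Left, share of tumour epithelial cells in cycle (y axis, %), and right, share of cycling cells that lean to S phase (y axis, %), both at 2000 UMIs per cell, by library (x axis); points are libraries, bars 95% exact binomial intervals of counting error, and black lines group means. The cycling shares of 11.6% to 15.8% overlap between groups, while the S-leaning shares of 20.4% and 21.4% with TAK-981 lie above 14.8% and 9.93% with vehicle.

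TAK-981 was then compared with vehicle gene by gene, on UMIs summed over the members of each library, by edgeR's quasi-likelihood test, with p-values adjusted over every tested gene by the Benjamini-Hochberg method. Of 11389 genes, 305 (2.68%) were higher and 484 (4.25%) lower at an adjusted p below 0.05, together 6.93%, and 2663 had an unadjusted p below 0.05. Leaving out a library gave 241 higher and 376 lower genes without vehicle 1, 129 and 340 without vehicle 2, 175 and 238 without TAK-981 1, and 135 and 266 without TAK-981 2, where the lone library of an arm is assumed to vary like the other group. By the same test 2.93% of genes were called in cells outside cycle and 1.03% in macrophages. The scaling matters for this split. TMM scaling factors were 0.856 and 0.852 for vehicle and 1.2 and 1.14 for TAK-981. With library totals alone the median of all genes moved from 0.01 to 0.47 on the log2 scale, with 1962 genes higher and 329 lower, so changes below are relative to the median gene. Levels for this comparison are CPM after TMM scaling, given in the order vehicle 1, vehicle 2, TAK-981 1, TAK-981 2, with the log2 fold change ± its standard error.

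Few single cycle genes passed the test, while many more lay lower in both TAK-981 libraries than lay higher. Of 185 listed cycle genes, all of them tested, 1 (0.541%) was higher and 7 (3.78%) lower, against 2.68% and 4.25% of all genes, with a median log2 fold change of -0.18 against 0.01 for all genes; with library totals alone the median was 0.28 against 0.47, so its sign flips with the scaling while it stays below the median gene. Groups did not overlap for 30 cycle genes, or 16.2%, on the higher side and 81, or 43.8%, on the lower side, against 27.9% and 27.1% of all genes tested. The list medians were 0.32 for the 22 licensing genes, 0.00 for the 36 DNA synthesis genes, -0.14 for the 25 cyclins and mitotic kinases, -0.38 for the 31 spindle and kinesin genes, -0.25 for the 28 kinetochore genes, -0.40 for the 24 cohesin, condensin and chromosome genes and -0.18 for the 19 APC/C and mitotic exit genes. Differences between lists were not tested, and without vehicle 2 the licensing median was 0.03.

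In the S phase lists, no licensing gene passed the test. Mcm7, whose promoter is shown above, stood at 168, 125, 171 and 128 CPM, and the groups overlap. Fen1, the nuclease that trims Okazaki fragments, stood at 19.5, 18.6, 50.7 and 36.9 CPM, with both TAK-981 libraries above both vehicle libraries, and rose by 1.2 ± 0.25 (adjusted p = 0.0288). Lig1, the ligase that seals the same fragments, stood at 91.3, 102, 56.2 and 49.2 CPM and fell by 0.88 ± 0.21 (adjusted p = 0.0471). Fen1 lost its call in 4 of 18 alternatives and Lig1 in 7, and without vehicle 1, vehicle 2 or TAK-981 1 no gene of the DNA synthesis list was called. The remaining 34 genes of the DNA synthesis list did not pass, among them Rrm2, the small subunit of ribonucleotide reductase, at 326, 437, 280 and 213 CPM, and Dut, which removes dUTP, at 342, 244, 406 and 338 CPM.

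In the mitotic lists, 2 of 31 spindle genes, 2 of 28 kinetochore genes, 1 of 24 chromosome structure genes and 1 of 19 APC/C genes were lower, none of 25 cyclins and mitotic kinases was, and none in these lists was higher. The share of all genes called lower was 4.25%, so these counts lie near it, and the genes below are given for their own values. Prc1, which bundles the microtubules of the central spindle, stood at 161, 184, 58.3 and 80.4 CPM and fell by 1.31 ± 0.24 (adjusted p = 0.0194). Its partner kinesin Kif23 stood at 99.7, 122, 52.6 and 64.3 CPM and fell by 0.92 ± 0.23 (adjusted p = 0.0496). The groups are apart for both genes, and Kif23 lost its call in 10 of 18 alternatives while Prc1 lost it in 2.

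Sgo1, shugoshin, which guards cohesin at the centromere until anaphase, stood at 127, 97.4, 37.3 and 36.5 CPM and fell by 1.61 ± 0.23 (adjusted p = 0.00786). Cenpw, a histone-fold protein of the inner kinetochore, stood at 156, 157, 23.1 and 29.9 CPM and fell by 2.56 ± 0.23 (adjusted p = 0.00368). Stag1, a cohesin subunit, stood at 88.6, 82.4, 27.4 and 32.5 CPM and fell by 1.51 ± 0.22 (adjusted p = 0.00812). Anapc13, a small subunit of the anaphase-promoting complex, stood at 169, 151, 18.4 and 24.8 CPM and fell by 2.88 ± 0.25 (adjusted p = 0.00368). All 4 have close replicates and groups far apart, and kept their call in all 18 alternatives. Kinetochore and cyclin genes with the highest levels overlapped between groups: Cenpa stood at 207, 240, 229 and 203 CPM and Cks1b, which binds cyclin-dependent kinases, at 319, 280, 368 and 294 CPM.

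In macrophages of the same tumours Anapc13 and Cenpw were lower as well, with log2 fold changes of -1.98 and -1.62 (adjusted p of 0.0253 and 0.0391 by edgeR). Sgo1, Stag1, Prc1 and Kif23 did not pass there, at -0.65, -0.65, -0.67 and -0.30 (adjusted p of 0.476, 0.220, 0.329 and 0.668 by edgeR). In cells outside cycle the log2 fold change was -2.84 for Anapc13 and -2.90 for Cenpw, both with an adjusted p of 0.0122 by edgeR. Sgo1, Stag1, Prc1 and Kif23 stood at -1.14, -1.24, -1.10 and -1.18 there and did not pass (adjusted p of 0.175, 0.0788, 0.232 and 0.113 by edgeR). None of the 6 genes passed the interaction test of a difference between cycling cells and cells outside cycle (adjusted p of 0.702 to 0.985 by edgeR). Anapc13, Stag1 and Kif23 lie on chromosome 9, whose genes were lower as a group in the members; 13 of the 185 cycle genes tested lie there. Without them 1 of 172 cycle genes was higher and 4 lower. Whether chromosome 9 has a part in the calls on it was not tested.

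The rule genes chose the members at full depth, which differs by group, so they are given as levels only. Top2a stood at 578, 514, 244 and 285 CPM, Nusap1, a spindle-associated protein, at 130, 131, 58.6 and 51.0 CPM, and Mki67 at 182, 229, 99.0 and 124 CPM. Ube2c, the ubiquitin-conjugating enzyme of the anaphase-promoting complex, stood at 412, 447, 456 and 399 CPM. The first 3 were lower in both TAK-981 libraries, and Ube2c overlapped between groups. The printed promoters of Top2a and Ube2c both hold TTTGAA and 6 CCAAT matches.

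**Figure D3:**
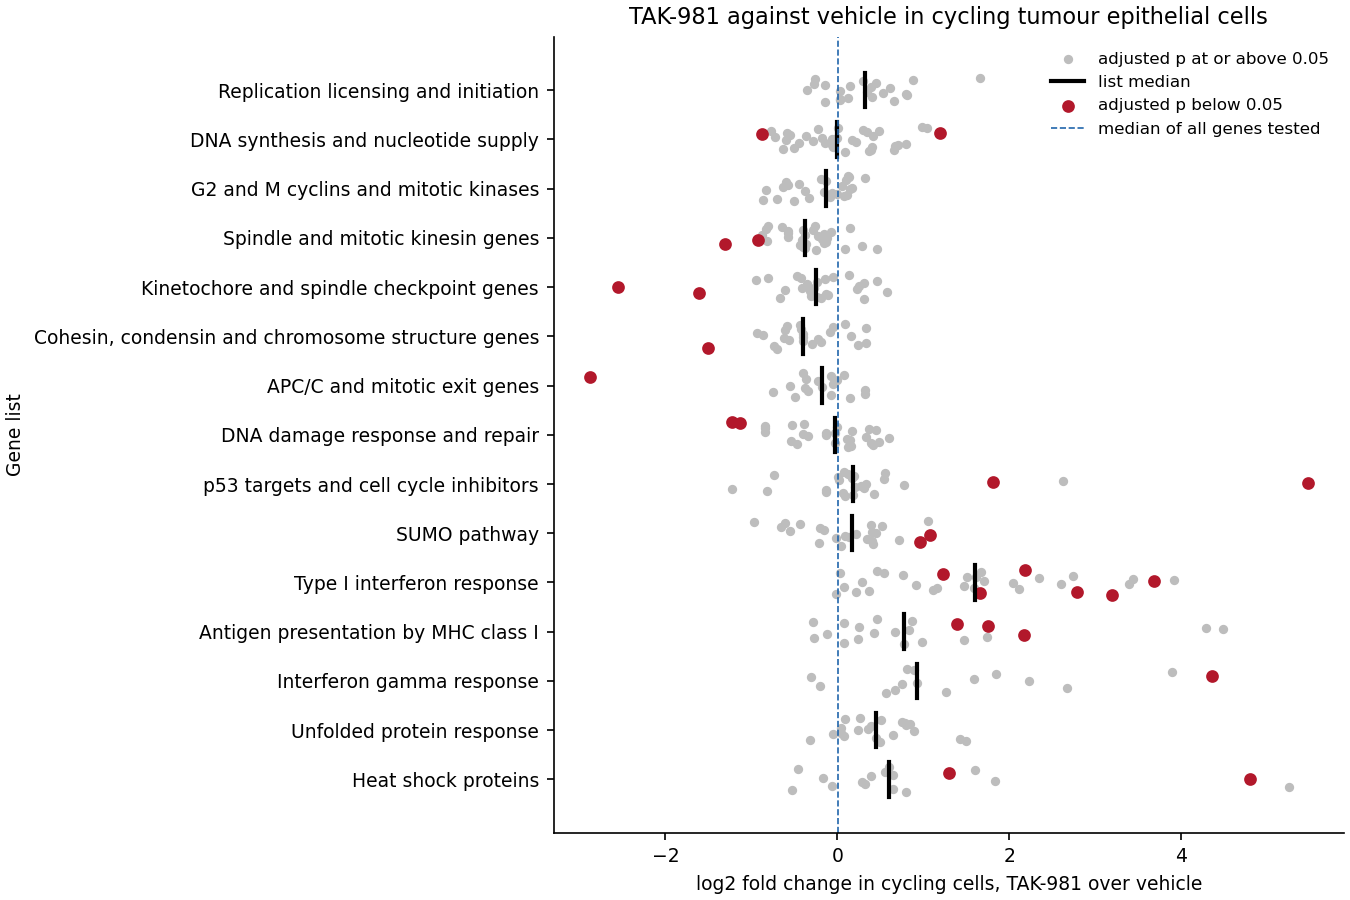
Log2 fold change in cycling cells, TAK-981 over vehicle (x axis), for each gene of 15 lists (y axis); red points passed the test at an adjusted p below 0.05, grey points did not, black bars are list medians and the dashed line is the median of all genes tested. The licensing median of 0.32 lies right of the dashed line, the DNA synthesis median of 0.00 close to it and the other cycle medians left of it, with single genes far to the left, and the interferon and MHC class I lists lie to its right.

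Of 28 damage response and repair genes, 2 (7.14%) were lower and none higher, against 4.25% and 2.68% of all genes, with a median of -0.03. The 2 lower genes, given for their own values, are the apical checkpoint kinases. Atr stood at 20.2, 17.9, 7.82 and 9.42 CPM and fell by 1.14 ± 0.25 (adjusted p = 0.0376). Atm stood at 22.3, 16.2, 6.88 and 9.38 CPM and fell by 1.23 ± 0.29 (adjusted p = 0.0436). Both lie on chromosome 9, Atr at chr9:95857597-95951781 and Atm at chr9:53439149-53536740 (mm10, GENCODE vM21), and they lost their calls in 9 and 7 of 18 alternatives. Of 25 p53 targets and cycle inhibitors, 2 (8%) were higher, against 2.68% of all genes. Gdf15, a stress cytokine, held 4 and 1 UMIs with vehicle and 140 and 537 with TAK-981 (0.558, 0.140, 14.6 and 17.1 CPM) and rose by 5.47 ± 0.49 (adjusted p = 0.00368). Gadd45a, a growth arrest and damage gene, stood at 10.9, 8.94, 26.3 and 43.2 CPM and rose by 1.82 ± 0.31 (adjusted p = 0.0151). Cdkn2a, the locus of p16 and p19ARF, stood at 259, 293, 327 and 293 CPM and Bax, a mitochondrial death effector, at 126, 121, 134 and 126 CPM (adjusted p of 0.686 and 0.868 by edgeR). In macrophages the log2 fold change of Gdf15 was 0.02.

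In the SUMO pathway, 2 of 24 genes (8.33%) were higher and none lower, with a median of 0.17, against 2.68% of all genes higher. With any 1 of the 4 libraries left out, none was called. Sumo3, a SUMO protein that can form chains, stood at 54.6, 60.6, 113 and 112 CPM and rose by 0.97 ± 0.21 (adjusted p = 0.0318). Senp2, a protease that removes SUMO, stood at 24, 21.2, 50.4 and 45.2 CPM and rose by 1.08 ± 0.22 (adjusted p = 0.0281); it lies on chromosome 16, whose genes were higher as a group. The subunits of the enzyme that TAK-981 blocks were picked here for that role and were not called. Sae1 stood at 49.8, 56.5, 76.2 and 69.4 CPM and Uba2 at 60.9, 57.6, 82.1 and 75.9 CPM, with groups apart and adjusted p of 0.237 and 0.266 by edgeR. These are RNA levels, and enzyme activity was not measured.

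A few interferon genes rose in the members, and most of the others lay higher without passing the test. Of 32 type I interferon genes tested, 6 (18.8%) were higher and none lower, against 2.68% and 4.25% of all genes, with a median log2 fold change of 1.60 against 0.01 for all genes, and 27 of 32 (84.4%) had groups apart on the higher side, against 27.9% of all genes. Their summed level was 177 and 140 CPM (of library totals) with vehicle and 607 and 426 with TAK-981. Irf7, the master regulator that amplifies the response, held 4, 5, 83 and 245 UMIs (0.558, 0.699, 8.66 and 7.79 CPM) and rose by 3.69 ± 0.44 (adjusted p = 0.00511). Zbp1, a sensor of Z-form nucleic acids, stood at 0.698, 0.279, 3.65 and 5.31 CPM and rose by 3.19 ± 0.59 (adjusted p = 0.0206). In both genes the vehicle libraries lie near 0 and the TAK-981 libraries well above.

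Bst2, tetherin, whose promoter holds 2 overlapping interferon regulatory letters, stood at 33.9, 15.0, 162 and 60.8 CPM and rose by 2.18 ± 0.51 (adjusted p = 0.0435). Usp18, which removes ISG15, stood at 3.07, 2.38, 7.41 and 9.67 CPM and rose by 1.65 ± 0.36 (adjusted p = 0.0335). Ifi27, an interferon-inducible protein, stood at 38.8, 32.8, 81.4 and 86.9 CPM and rose by 1.23 ± 0.22 (adjusted p = 0.0167). Trim30a, which dampens innate signalling and is named here only to complete the count, stood at 0.279, 0.559, 2.09 and 3.69 CPM and rose by 2.79 ± 0.65 (adjusted p = 0.0423). The list's median was 1.14 in cells outside cycle and 1.21 in macrophages, with 0 of 32 and 1 of 35 genes called higher, against 0.803% and 0.328% of all genes there. Without vehicle 1, vehicle 2, TAK-981 1 or TAK-981 2, the calls numbered 7, 2, 3 and 2, and the median was 1.32 to 1.77.

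MHC class I genes display peptides to T cells. Of 21 tested, 3 (14.3%) were higher and none lower, with a median of 0.78, and without vehicle 1, vehicle 2, TAK-981 1 or TAK-981 2 the calls numbered 3, 2, 1 and 4. Over all genes tested, 2.68% were called higher and 4.25% lower. H2-K1 stood at 39.8, 21.8, 108 and 100 CPM and rose by 1.76 ± 0.30 (adjusted p = 0.0154). H2-D1 stood at 88.6, 89.7, 278 and 191 CPM and rose by 1.39 ± 0.25 (adjusted p = 0.0174). Psmb8, a catalytic subunit of the immunoproteasome, stood at 2.79, 1.96, 13.0 and 8.65 CPM and rose by 2.18 ± 0.38 (adjusted p = 0.0170). Of 15 interferon gamma genes 1 was called, and the call was lost with any 1 library left out: Gbp3, a guanylate-binding protein, with 1 and 1 UMIs against 33 and 85, a ratio of 20.6 (95% counting interval 5.58 to 172; adjusted p = 0.0130).

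**Figure D4:**
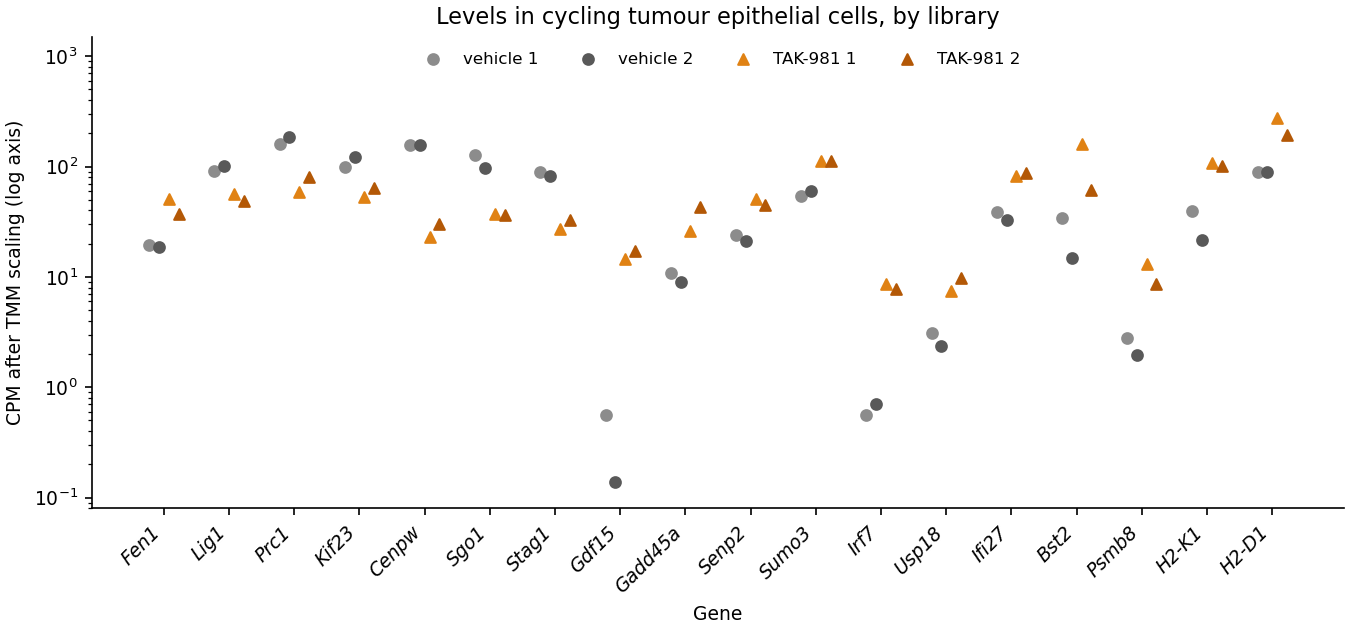
Level in cycling cells (y axis, CPM after TMM scaling, log axis) of 18 genes called in the cycle, damage, SUMO, interferon and MHC class I lists (x axis), with circles for vehicle and triangles for TAK-981 libraries. For each gene the 2 groups are apart, as for Cenpw at 156 and 157 against 23.1 and 29.9 CPM.

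Of 17 heat shock genes 2 (11.8%) were higher, against 2.68% of all genes: Dnajb1, a co-chaperone, at 69.5, 64.3, 112 and 216 CPM, rose by 1.30 ± 0.32 (adjusted p = 0.0492), and Hspa1a, inducible HSP70, with 2, 2, 19 and 425 UMIs, rose by 4.80 ± 1.05 (adjusted p = 0.0354). TAK-981 library 2 carries most of the second change, and no heat shock gene was called without TAK-981 2 or without vehicle 2. Of 21 unfolded protein response genes none passed, with Hspa5, the chaperone BiP, at 434, 410, 700 and 864 CPM (adjusted p = 0.0568), and Calr of the same compartment at 383, 428, 798 and 684 CPM (adjusted p = 0.0573). Of 23 cell death genes 2 (8.70%) were higher, among them the pore-forming Gsdmd, which at 26.9, 30, 75.1 and 49.4 CPM rose by 1.12 ± 0.26 (adjusted p = 0.0426). Without vehicle 2 no gene of that list was called, and with any other library left out 1 was.

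Genes of pancreatic and ductal identity included 5 of 20 tested (25%) that were higher, against 2.68% of all genes. Without vehicle 1, vehicle 2, TAK-981 1 or TAK-981 2 the calls numbered 7, 2, 2 and 6, and the median of 0.37 became 1.44 without vehicle 1. In cells outside cycle the list's median was 0.01, with 0 of 24 genes called higher, against 0.803% of all genes there. In macrophages the list's median was 1.34, with 1 of 17 genes called higher, against 0.328% of all genes there. The part of RNA from other cells in these changes was not tested. Elf3, an epithelial transcription factor, stood at 8.79, 6.43, 31.8 and 30.7 CPM and rose by 2.04 ± 0.26 (adjusted p = 0.00559). Ehf, of the same family, stood at 9.63, 3.77, 41.3 and 22.3 CPM and rose by 2.24 ± 0.46 (adjusted p = 0.0288). Lcn2, a secreted iron-binding protein, stood at 0.698, 0.699, 69.6 and 12.9 CPM and rose by 5.85 ± 0.92 (adjusted p = 0.0114). Cldn3, a tight junction protein named here to complete the count, had 0 UMIs in both vehicle libraries and 121 and 55 with TAK-981, at least 20.5-fold higher against a floor of 3 counts over the group, and the chloride channel Cftr had 1 and 0 UMIs against 16 and 51, a ratio of 23.4 (95% counting interval 4.06 to 937).

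Few genes of the growth lists were called, where 2.68% of all genes were called higher and 4.25% lower. Of 26 MYC and ribosome biogenesis genes only Wdr43, a small-subunit processome factor, was called: it stood at 205, 191, 83.3 and 89.0 CPM and fell by 1.2 ± 0.21 (adjusted p = 0.0160), a call lost without either TAK-981 library. Of 23 RAS and MAPK feedback genes only Dusp4, a phosphatase of ERK, was called, at 9.21, 9.64, 23.9 and 47.5 CPM, and it rose by 1.93 ± 0.35 (adjusted p = 0.0191). None of 18 basal and mesenchymal genes passed, with a median of -0.04. None of 24 glycolysis and hypoxia genes and none of 20 cholesterol synthesis genes passed edgeR's test, and over the alternatives 0 to 2 genes of each list were higher and 0 to 1 lower. In the gastric-type list 1 of 18 genes was called, Reg1, described with the acinar genes, while Cldn18, a gastric claudin, stood at 625, 1108, 268 and 470 CPM (adjusted p = 0.0846).

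Among genes of higher level (mean log2 CPM of 5 or more, groups apart), 75 rose, and those with the largest changes include the following. Cfb, complement factor B, stood at 8.79, 5.59, 76.7 and 42.0 CPM and rose by 3.04 ± 0.37 (adjusted p = 0.00513). Hp, haptoglobin, stood at 2.23, 2.38, 308 and 35.4 CPM and rose by 6.21 ± 1.02 (adjusted p = 0.0136). Trf, transferrin, stood at 132, 61.5, 350 and 561 CPM and rose by 2.23 ± 0.40 (adjusted p = 0.0171). Mgst1, a microsomal glutathione transferase, rose by 2.40 ± 0.42 and Isyna1, which makes inositol phosphate, by 1.85 ± 0.29, with adjusted p of 0.0171 and 0.0115 by edgeR.

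Digestive enzyme RNA was detected in more members with TAK-981 than with vehicle, and a few members held most of its UMIs. Ctrb1, chymotrypsinogen, held 12, 0, 1230 and 11171 UMIs in the members, and Prss2, trypsinogen, 13, 3, 907 and 6080. Of 12 acinar markers 10 were higher, against 2.68% of all genes. The Reg genes Reg1, Reg2 and Reg3b rose with them, by 7.34, 7.22 and 7.80. A single member of TAK-981 library 1 held 65.8% of its acinar UMIs and 3 members of TAK-981 library 2 held 93.7%. At 2000 UMIs, 1.04%, 1.29%, 26.2% and 16.1% of members had an acinar UMI, and so did 7.19%, 6.23%, 42.1% and 34.1% of macrophages, which do not make these enzymes. Without those 4 cells 6 of 11 acinar markers were called, the log2 fold change of Ctrb1 was 5.16 in place of 8.16, that of Reg1 was 3.62 and not called (adjusted p = 0.0993), and 767 of the 789 calls held.

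Prl, prolactin, is a pituitary hormone, and its RNA lay in the vehicle members. It held 866, 1611, 0 and 46 UMIs (121, 225, 0 and 1.46 CPM) and fell by 7.45 ± 0.74 (adjusted p = 0.00381). At 2000 UMIs 9.33% and 22.4% of vehicle members had a Prl UMI, against 0.62% and 1.25% of vehicle macrophages. All 46 UMIs of TAK-981 library 2 lay in 3 cells. Of the erythroid markers 1 was tested and called lower, the haemoglobin gene Hbb-bs at 1.68, 69.0, 0 and 0.0318 CPM (adjusted p = 0.0270), high in vehicle library 2. Of 5 neutrophil markers 1 was lower, against 4.25% of all genes. This was S100a8, a calcium-binding protein of neutrophils, which stood at 12.3, 19.8, 0.417 and 2.70 CPM and fell by 3.16 ± 0.61 (adjusted p = 0.0234).

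Markers of the other cell types stayed low. The 14 macrophage markers summed to 190, 224, 437 and 269 CPM in the members against 31789 to 49787 CPM in macrophages, and none of the 13 tested passed edgeR's test. Fibroblast markers summed to 38.8, 53.1, 72.2 and 86.0 CPM, endothelial markers to 7.39, 14.6, 22.2 and 21.2 CPM, lymphocyte markers to 5.82 to 11.8 CPM and neutrophil markers to 10.2 to 51.2 CPM, and none of the 6 fibroblast, 3 endothelial and 1 lymphocyte markers tested passed. Ptprc and Pecam1 are at 0 by the rule, which also caps the C1q genes and Col3a1 with Col1a2. At full depth, which differs by group, 45 of 386 and 60 of 544 vehicle members held a C1q UMI. With TAK-981 94 of 210 and 201 of 666 members did. The part of RNA from other cells in the other changes was not tested.

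Short transcripts were over-represented among the lower genes, where a gene's length is that of its longest annotated transcript. Transcripts under 800 nt were 3.20% of the genes tested with a length, 3.28% of the higher genes and 26.7% of the lower ones, and their median log2 fold change was -0.94. They took 16.2% and 16.2% of the members' UMIs with vehicle and 7.36% and 9.77% with TAK-981. In macrophages they took 11.8% and 12.9% against 9.30% and 9.69%. Atp5k, a small subunit of ATP synthase, stood at 837, 494, 48.2 and 106 CPM and fell by 3.1 ± 0.43, Romo1 of the mitochondrial inner membrane stood at 460, 411, 51.9 and 77.2 CPM and fell by 2.75 ± 0.27, and Ndufa3 of respiratory complex I stood at 183, 156, 20 and 29.2 CPM and fell by 2.77 ± 0.26, with adjusted p of 0.00709, 0.00368 and 0.00368 by edgeR.

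In macrophages the log2 fold changes of these genes were -2.44 for Atp5k, -2.23 for Romo1 and -2.57 for Ndufa3. Pet100, an assembly factor of cytochrome oxidase, Tomm7, of the mitochondrial import pore, the histone gene Hist1h4d and the noncoding Snhg9 are among the 12 largest decreases, at -3.05, -2.70, -4.57 and -3.07. With transcripts under 800 nt left out, 292 genes were higher and 373 lower, and 641 of the 789 calls held. None of the cycle genes called has a longest annotated transcript that short. Cenpw counts as 4143 nt and Anapc13 as 1216 nt that way, and both were also lower in macrophages. Which of their transcripts the cells held was not tested. RNA quality, library preparation and treatment cannot be told apart for the short transcripts, since each moves with the group.

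Changes were spread unevenly over the chromosomes in the tumour cells, a pattern noticed after the values were seen and given without a test. Of the 305 higher genes 62, or 20.3%, lie on chromosome 16, which holds 3.16% of the genes tested, and of the 484 lower genes 56, or 11.6%, lie on chromosome 9, which holds 5.48%. Among genes with transcripts of 800 nt or more the median log2 fold change was 0.70 on chromosome 16, with 90.7% of 355 genes above 0, and -0.39 on chromosome 9, with 21.5% of 610 genes above 0. The other chromosomes lay between -0.21 and 0.23. Along chromosome 16 4 runs of its genes in order of position had medians of 0.69, 0.71, 0.72 and 0.75, and along chromosome 9 -0.39, -0.37, -0.50 and -0.36, so the shift was present in each run of either chromosome.

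Cells outside cycle, from the same tumours, had shifts of 0.69 on chromosome 16 and -0.27 on chromosome 9. Macrophages stood at 0.06 and -0.04, with every chromosome between -0.08 and 0.06. On chromosome 16 the libraries of members are apart by group. The median deviation of its genes from their mean was -0.31 and -0.41 with vehicle and 0.42 and 0.26 with TAK-981. Ifnar2 and Ifngr2, receptor chains of type I and type II interferon, lie on this chromosome and were picked here for that reason. Ifnar2 stood at 47.7, 34.4, 131 and 94.9 CPM and rose by 1.46 ± 0.26 (adjusted p = 0.0191). Ifngr2 stood at 28.9, 26.7, 77.3 and 60.6 CPM and rose by 1.31 ± 0.23 (adjusted p = 0.0167). In macrophages their log2 fold changes were 0.23 and 0.18. With library totals alone the chromosome 9 median was 0.06, against 0.47 for all genes. DNA copy number was not measured.

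**Figure D5:**
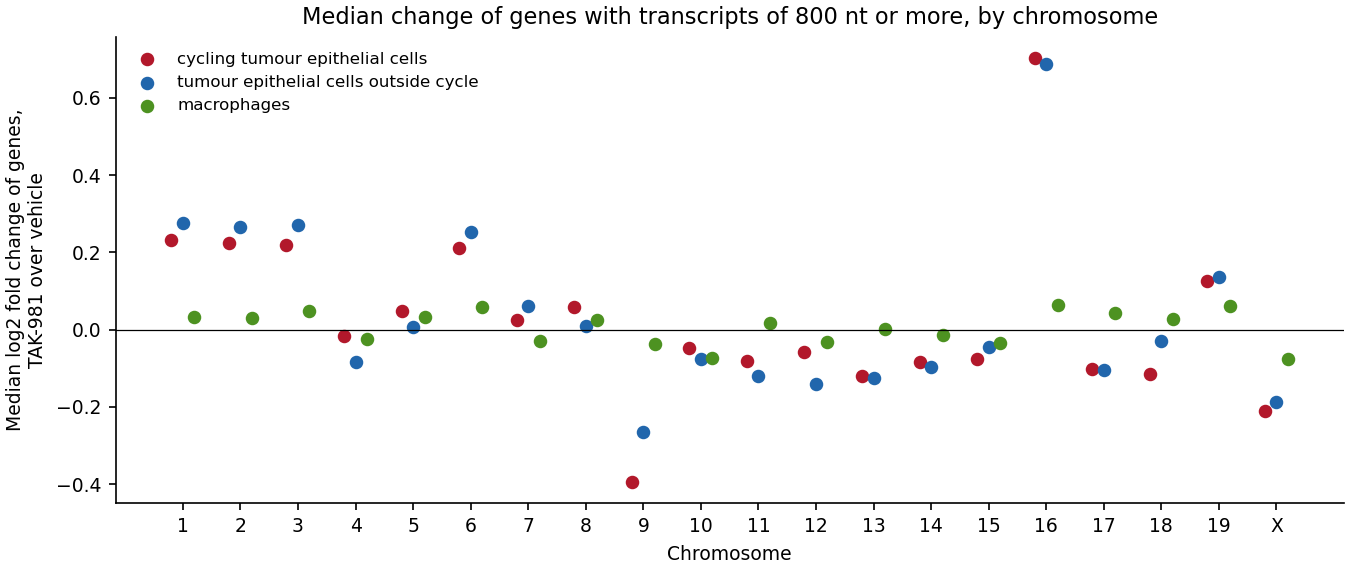
Median log2 fold change of genes with transcripts of 800 nt or more, TAK-981 over vehicle (y axis), by chromosome (x axis), for cycling cells, cells outside cycle and macrophages. Chromosome 16 stands at 0.70 and chromosome 9 at -0.39 in cycling cells, cells outside cycle at 0.69 and -0.27, and macrophages stay between -0.08 and 0.06.

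Single members spread on these chromosomes too. The median member devoted 1.62% and 1.53% of its UMIs to chromosome 16 with vehicle and 2.53% and 2.43% with TAK-981, and macrophages 2.07%, 2.05%, 1.81% and 1.93%. Chromosome 2 moved too, with medians of 5.81%, 5.89%, 7.61% and 7.34% in members and 6.24%, 6.18%, 6.59% and 6.77% in macrophages, and a median gene at 0.23 in the comparison by chromosome. For chromosome 9 the medians were 6.06%, 6.71%, 4.58% and 5.36%, with a 90th percentile of 7.44% and 7.92% in the TAK-981 libraries, above the 6.67% and 7.25% of vehicle. At a limit of 6.5% of UMIs, set after the values were seen, 67 of 386 and 355 of 544 vehicle members and 29 of 210 and 177 of 666 TAK-981 members lay at or above it, and 97, 180, 8 and 45 lay within 0.25 points of it. Between those 2 sets of TAK-981 members the median gene of chromosome 9 differed by 0.63 and 0.56 on the log2 scale, and that of chromosome 16 by -0.07 and -0.04; in vehicle members chromosome 9 differed by 0.29 and 0.15. S100a4, a motility-linked calcium-binding protein on chromosome 3 picked after its values were seen, stood at 751 and 512 CPM in the members at or above the limit and at 91.2 and 132 CPM below it, on library totals; with vehicle it stood at 1069 and 1013 CPM at or above the limit and 504 and 863 below. Fibroblast markers moved with this split: they summed to 147 and 260 CPM at or above the limit and 60.2 and 26.8 below it with TAK-981, and to 48.7 and 56.2 against 36.7 and 47.4 with vehicle. Mgp, a matrix protein of mesenchymal cells, stood at 148 against 1.94 CPM in TAK-981 library 2. Ductal and epithelial identity genes summed to 12387 and 9933 CPM at or above the limit with TAK-981, against 8460 and 8891 below it. With vehicle they summed to 5855 and 7309 CPM against 5678 and 7248. H2-K1, also picked after its values were seen, stood at 468 and 173 CPM at or above the limit with TAK-981 and at 74.9 and 93.9 below it, on library totals. With vehicle it stood at 33.6 and 18.1 CPM against 34.1 and 19.4. The part of fibroblast RNA in this split was not tested. These members are cells of 2 tumours and no replicates, and the sets were cut on the UMIs compared.

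Whether TAK-981 acted differently in cycling cells than in cells outside cycle was tested as an interaction over 8 sums with the library as a block. Of 12196 genes 15, or 0.123%, passed, 5 higher and 10 lower in cycling cells, and 852 had an unadjusted p below 0.05. In cells outside cycle alone 95 genes (0.803%) were higher and 252 (2.13%) lower; a smaller number there does not show a smaller effect. Of the 185 cycle genes 2 passed, both relatively higher in members. The rule cut both states on cycle genes at full depth, which differs by group. For cycle genes these p-values therefore cannot separate treatment from the choice of cells. Rrm2 stood at 52.9, 88.1, 19.4 and 20.2 CPM in cells outside cycle, and its effect was 1.12 ± 0.17 higher in members (adjusted p = 0.0283). Plk4, the kinase of centriole duplication, stood at 110, 47.2, 48.5 and 48.7 CPM in members and at 32.4, 11.0, 4.36 and 5.19 in cells outside cycle, a difference of 1.35 ± 0.20 (adjusted p = 0.0259). Cells outside cycle are defined by showing fewer than 3 of the 6 cycle genes, and 1828 of the 3017 showed none. Their median UMIs were 12801, 9440, 15438 and 17614.

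The other named differences lay in secreted proteins and a linker histone. Tff2, a gastric trefoil peptide, stood at 55.6, 0.140, 11.5 and 112 CPM in members and 0.506, 0.0887, 13.9 and 503 in cells outside cycle (difference -7.88 ± 0.90, adjusted p = 0.0198). Both Tff2 levels of vehicle library 2 lie near 0, so on the vehicle side the difference rests largely on vehicle library 1. Dmbt1, a mucosal scavenger protein, stood at 11.7, 6.43, 8.24 and 31.2 CPM in members and 15.7, 12.1, 48.5 and 166 outside cycle (-1.81 ± 0.22, adjusted p = 0.0198). Linker histone Hist1h1c stood at 26.4, 49.6, 30 and 34.3 CPM in members and 28.6, 61.3, 103 and 89.4 outside cycle (-1.33 ± 0.17, adjusted p = 0.0213). Il33, an alarmin, stood at 86.6, 2.38, 48.6 and 71.9 CPM in members and 191, 5.94, 48.3 and 80.7 outside cycle (1.04 ± 0.15, adjusted p = 0.0283). The library is a block in this fit, so these values rest on the ratio of members to cells outside cycle within each tumour, which the levels of Tff2 and Il33 between tumours do not show. With every cell thinned to 2000 UMIs 1 gene passed, and with the library block left out none did, with 68 genes at an unadjusted p below 0.05 by edgeR.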

How the data were processed

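The series holds 4 droplet libraries (10x Genomics, 3′ chemistry) of dissociated KPC46 tumours, 2 from vehicle and 2 from TAK-981 mice. The authors deposited raw UMI counts per gene and barcode, made with Cell Ranger 6.1.2 on mm10 per the submitters' processing notes, over 32285 features, and 0 columns of values were left unused. Cells were kept by the stated limits, with doublets marked by Scrublet (scanpy 1.11.5) but left in. Counts were summed per library over cycling cells, cells outside cycle and macrophages, and tested with edgeR 4.0.16 in R 4.3.3 (filterByExpr, TMM, quasi-likelihood test, adjusted p below 0.05), or with DESeq2 1.42.0 as an alternative. The replicate is the mouse, and the design has 2 per group, so p-values measure the spread between 4 tumours. Shares were compared at 2000 UMIs per cell (seed 1) by exact permutation, with 95% Clopper-Pearson intervals. Only the edgeR test of the cycling cells was run on simulated counts. It recovered 46% of 100 genes changed by 1 on the log2 scale and 100% of 100 changed by 2, with 6 false calls.

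The members, the 31 gene lists and the tests were chosen with earlier results of these data known. Genes are named as rule genes, as up to 12 per direction with the largest change (adjusted p below 0.05, mean log2 CPM of at least 5, groups apart; ribosomal protein, mitochondrial, haemoglobin and unnamed genes left out), as up to 4 called members and 2 of the highest level per list, and as up to 5 per direction of the interaction; other names are marked, and some genes that meet these rules are not reported here. Transcript lengths (the longest transcript of each gene) and chromosomes come from GENCODE vM21. Promoter letters come from RefSeq, where the first listed start of each symbol was used. The chromosome grouping, the 6.5% limit, the fit on library totals and the removal of members with at least 10 acinar UMIs at 2000 UMIs were added after the values were seen.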

Additional observations from a re-analysis of the deposited data

Results flagged for a closer look

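Between cycling cells and cells outside cycle of the same tumours, 7 named genes differed in their TAK-981 effect by edgeR's interaction test. The adjusted p was 0.0198 for Tff2 and for Dmbt1, 0.0213 for Hist1h1c, 0.0259 for Prl and for Plk4, and 0.0283 for Il33 and Rrm2. Tff2, Dmbt1 and Hist1h1c were relatively lower in cycling cells with TAK-981, and Prl, Plk4, Il33 and Rrm2 relatively higher. Plk4 and Rrm2 are listed cycle genes, and both states were cut on cycle genes at full depth. Their p-values therefore cannot separate treatment from the choice of cells. Prl stood at 121, 225, 0 and 1.46 CPM in cycling cells and at 93.9, 168, 0 and 0 outside cycle, so its difference rests on 46 UMIs of 3 cells. Each of the 7 passed in 8 to 10 of 12 alternatives.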

How the results depend on the processing

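Thinning every cell to 2000 UMIs, with members still chosen at full depth, left 140 higher and 316 lower genes in cycling cells, with fewer genes tested. No filter on low counts gave 961 and 878. Library totals alone gave 1962 higher genes and moved the chromosome 9 median to 0.059, Hist1h1c to 0.22 and Cenpa to 0.41. Leaving out 1 library gave 129 to 241 higher and 238 to 376 lower genes, and in cells outside cycle 8 to 260 and 4 to 333, where DESeq2 gave 367 and 516. The interaction gave 2 higher genes at 5000 UMIs per cell, 9 with at least 5 of 6 cycle genes, 63 and 67 with no filter, 0 and 0 with no library block (68 unadjusted), 0 and 1 on thinned counts, and 22 to 78 higher and 19 to 75 lower without 1 library, where few residual degrees of freedom remain. Against cells with none of the 6 cycle genes, 54 genes in place of 30 were 2-fold lower in members.

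The cycling share differed by -3.08 to 1.10 points without 1 library and by 0.28 with at least 5 of 6 cycle genes. S-leaning shares kept their direction in every alternative, by 6.16 to 11.0 points without 1 library. Directions of uncalled genes turned as follows. Mcm7 was at -0.016 thinned, -0.037 with the length trend removed and -0.21 to 0.25 without 1 library. Without 1 library Cks1b ranged from -0.037 to 0.28, Cenpa from -0.16 to 0.057, Plk4 from -1.19 to 0.036, Il33 from -0.52 to 4.66, Tff2 from -1.28 to 8.72, Dmbt1 from -0.15 to 1.77 and Hist1h1c from -0.63 to 0.28.

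The labels do not say whether same-numbered libraries form pairs. Their deviations correlated at -0.096 over 3851 genes, which cannot show how the mice were handled. A replicate block gave 313 higher and 466 lower genes. The cause of these shifts was not tested. With 2 tumours per group, an uncalled gene is not shown to be unchanged.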
